A study of Mus musculus with 6 samples.

Results

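The nuclear genes that carry proteins and metabolites across the mitochondrial membranes were followed in LT/ST-HSCs, a sorted population enriched for long-term and short-term hematopoietic stem cells, that lacked or carried the lymphotoxin β receptor gene Ltbr. Genes were taken by symbol, as every Timm, Tomm or Slc25a symbol followed by a number, without pseudogenes. This gave 66 of the 26216 gene symbols measured, of which 9 were small Tim/Tom subunits, 13 were other Tim/Tom proteins and 44 were Slc25 carriers. The rule uses the symbols only.

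RNA was sequenced from 3 Ltbr-/- and 3 Ly5.1 samples, all taken at week 6 after transplantation. Donors of the Ltbr-/- samples carried a homozygous germline deletion within the gene and the CD45.2 form of the pan-leukocyte surface protein CD45, and were 10 to 13 weeks old. Donors of the Ly5.1 samples came from the control strain, carried CD45.1, and were 7 to 13 weeks old. Lineage-negative, sca1+ c-kit+ bone marrow cells (LSKs) of both were placed together in lethally irradiated Ly5.1/Ly5.2 recipients, so the control cells had also been transplanted and had shared a host with the knockout cells. Sorted cells were positive for c-kit, sca1 and CD150 and negative for lineage markers, CD48 and Annexin-V, and cells of several chimeras were pooled into each replicate, so the p-values measure the spread between such pools.

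Most mitochondrial proteins are made in the cytosol and enter through the TOM complex of the outer membrane, where receptors such as Tomm20 and Tomm70a hand them to the Tomm40 channel and the small subunits Tomm5, Tomm6 and Tomm7 hold the complex together. Proteins with a cleavable presequence go on through the TIM23 complex. Members of the Slc25 family are guided across the intermembrane space by small Tim chaperones and inserted into the inner membrane by the TIM22 complex, where each exchanges its own metabolites, nucleotides or ions. The carriers are therefore themselves clients of the import machinery. Stem cells of the marrow are known for relying little on oxidative phosphorylation while at rest.

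Signal is the deposited expression value of a gene, a regularized log value raised as a power of 2, in arbitrary units. Regularization pulls low values toward the mean of a gene over all samples, so changes of low genes are understated, and read depth is unknown from such values. All fold changes are differences of log2 signal, Ltbr-/- minus Ly5.1, and were tested with limma over the 13108 symbols in the upper 50% by mean, with Benjamini-Hochberg adjustment over all of them. Of the 66 genes, 59 were tested. Slc25a18, Slc25a34, Slc25a41 and Tomm20l lay below that limit, as did Slc25a31, Slc25a48 and Timm8a2, which were listed at 1 in every sample.

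The Ltbr signal was 24.2, 26.4 and 23.1 in the Ltbr-/- samples and 564, 549 and 522 in the Ly5.1 samples (log2 fold change -4.47, limma adjusted p = 2.15e-32). All 9 stem cell markers were found with means above 20, and their summed signal was 15107 to 15421 in Ltbr-/- and 17352 to 17737 in Ly5.1 samples, with 3 of 9 lower at adjusted p. All 3 T cell markers lay under 20. So did 3 of 5 B cell markers, whose sum was 612 to 643 against 448 to 508, with 1 higher. Monocyte and macrophage markers summed to 5991 to 6735 against 6593 to 7129, with 2 of 5 higher and 1 lower, and markers of multipotent and lymphoid progenitors to 734 to 898 against 929 to 962, with 1 of 3 lower and 1 under 20. Granulocyte markers, all 7 of them lower at adjusted p, summed to 35907 to 36315 against 47462 to 51658. Mast cell and basophil markers summed to 7466 to 8036 against 4068 to 4661, with 2 of 5 higher and 1 lower, erythroid markers to 2618 to 2885 against 1532 to 1860, with 1 of 4 higher, and megakaryocyte markers to 11911 to 12639 against 9483 to 10716, with 1 of 4 higher, 1 lower and 1 under 20. The part of these cell type markers in the results below was not tested, and a changed share of a cell type cannot be told apart from changed RNA per cell.

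Tomm20, Slc25a1 and Slc25a39, an import receptor, the citrate carrier and a glutathione carrier, rose past both an adjusted p of 0.05 and a fold of 1.5. They were 3 of 59 tested members (5.08%), against 2.72% of all tested genes that were higher by the same thresholds. None was lower, against 0.0610% of all tested genes. By adjusted p alone, 8 members rose (13.6%, against 10.6% of all tested genes) and 0 fell (against 4.18%). The other 5 were Tomm7, Slc25a4, Tomm6, Timm8b and Slc25a3. The share by adjusted p lay near that of all genes, and the share past both thresholds rests on 3 genes. All 8 were among the 31 members in the upper 25% of symbols by mean, where they made up 25.8%, against 16.3% of all genes at that level.

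The plot of signal in each sample shows these 8 genes, in each of which the 3 Ltbr-/- samples lay above the 3 Ly5.1 samples.

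**Figure D1:**
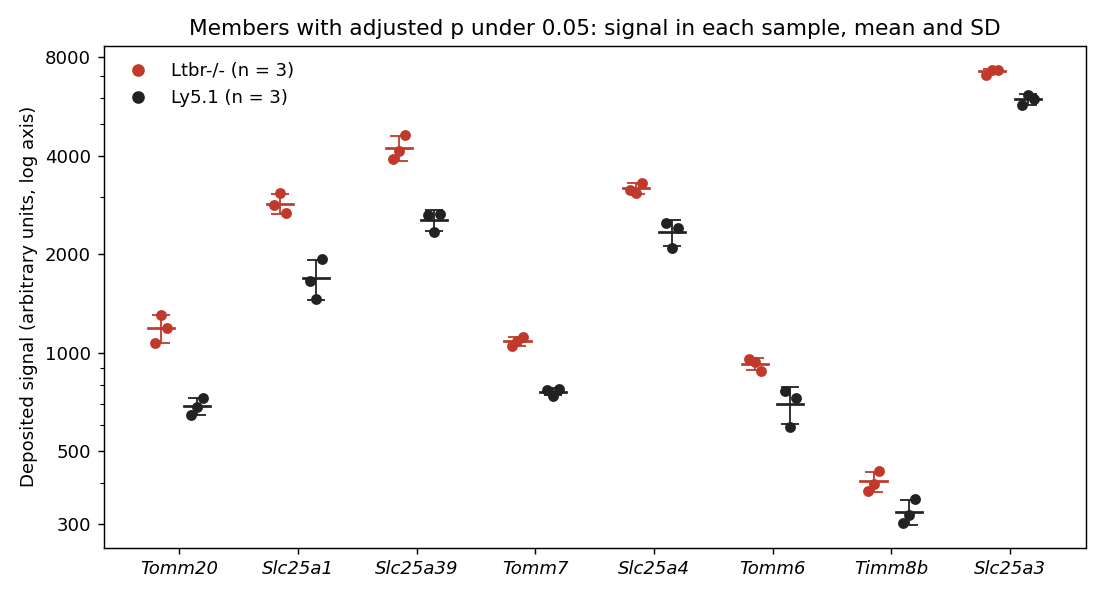
Deposited signal (log axis, arbitrary units) of the 8 members with adjusted p under 0.05, with 1 point per sample, the mean and the SD of 3 Ltbr-/- (red) and 3 Ly5.1 (black) samples. The groups do not overlap in any of the 8 on the deposited scale, on which no centring on ribosomal protein genes was applied, and the largest fold change is that of Tomm20.

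These directions hold on the scale the authors deposited. The median of 78 ribosomal protein genes was itself higher in Ltbr-/- on the deposited scale. Centring on these genes shifted the median of all tested genes by -0.86, to -0.88. On that scale 0 members were higher and 56 of 59 were lower by adjusted p. The share of all tested genes called there is not given here, so these counts show nothing particular to the members. Tomm20 was at -0.075, Slc25a1 at -0.10 and Slc25a39 at -0.14. Centring moves every gene of a sample by one common amount, so the order of the members is the same on both scales.

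Upstream bases of genes that rose are shown so that their promoters can be compared. They are the 250 bases before a transcript start that RefSeq annotates on GRCm38.p6, 5′ to 3′ on the strand of the gene, with matches to 2 motifs in capitals. The E-box letters CACGTG are bound by Myc and related factors, and the Ets letters CCGGAAG by Ets family factors. Tomm20 (chr8:126945922-126946171, minus strand) and Slc25a1 (chr16:17928220-17928469, minus strand) hold the E-box, Timm8b (chr9:50603651-50603900, plus strand) holds the Ets letters, and Slc25a39 (chr11:102407518-102407767, minus strand) holds neither. The Slc25a39 window precedes 1 transcript start and lies inside the full extent of the gene, which reaches 102408675, so it says nothing of the bases before the outermost start.
Tomm20: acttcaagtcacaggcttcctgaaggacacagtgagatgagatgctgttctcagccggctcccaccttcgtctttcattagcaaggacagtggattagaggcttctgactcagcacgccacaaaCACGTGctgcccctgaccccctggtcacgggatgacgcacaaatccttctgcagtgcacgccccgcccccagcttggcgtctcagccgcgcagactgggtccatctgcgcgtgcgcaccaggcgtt
Slc25a1: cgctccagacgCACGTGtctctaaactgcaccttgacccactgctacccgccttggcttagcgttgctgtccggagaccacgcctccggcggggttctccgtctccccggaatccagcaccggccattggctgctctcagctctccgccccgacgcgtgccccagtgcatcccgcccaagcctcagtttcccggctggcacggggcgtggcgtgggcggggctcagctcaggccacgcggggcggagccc
Slc25a39: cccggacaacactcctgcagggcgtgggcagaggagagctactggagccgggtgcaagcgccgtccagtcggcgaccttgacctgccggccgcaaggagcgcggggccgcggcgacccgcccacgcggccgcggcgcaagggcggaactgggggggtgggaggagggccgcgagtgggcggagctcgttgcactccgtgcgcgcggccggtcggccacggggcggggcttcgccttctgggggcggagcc
Timm8b: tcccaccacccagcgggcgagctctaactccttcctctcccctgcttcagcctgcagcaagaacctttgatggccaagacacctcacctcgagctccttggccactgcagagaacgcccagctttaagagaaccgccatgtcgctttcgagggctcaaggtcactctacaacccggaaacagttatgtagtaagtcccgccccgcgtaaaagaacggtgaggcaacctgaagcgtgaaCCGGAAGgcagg

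The windows of Slc25a3 and Slc25a4, which hold the Ets letters, and of Tomm6, which holds neither motif, are not printed because more than 30 of their bases are annotated as untranslated exon of the gene or of one that overlaps it. An upstream window was held for 54 of the 66 members and for 7 of the 8 that rose, with 1 window for each gene and without Tomm7. On either strand, the E-box was in 10 of 54 member windows (18.5%), in 6.05% of all 27025 windows and in 8.58% of 9179 windows of tested genes. The Ets letters were in 12 of 54 (22.2%), in 7.05% of all windows and in 14.0% of those of tested genes. The core letters of the Nrf1 motif, GCGCATGC, were in 2 of 54 (3.70%), against 2.32% and 4.65%. Among the 48 windows of tested members, 8 held the E-box (16.7%), 11 the Ets letters (22.9%) and 1 the Nrf1 core (2.08%). Of the 7 genes that rose, 2 held the E-box, 3 held the Ets letters (Slc25a3 included) and 0 held the Nrf1 core. No motif contains another, and a match is a description of the letters only.

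Tomm20, which recognizes presequences at the mitochondrial surface, had the largest fold change of all members. Its signal was 1074, 1307 and 1191 in Ltbr-/- and 647, 685 and 729 in Ly5.1 samples (1190 ± 116 against 687 ± 40.6, SD, n = 3 each). The lowest knockout sample was well above the highest control sample. The log2 fold change was 0.79 ± 0.092 (SE, limma adjusted p = 1.56e-08).

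The remaining TOM receptors and the channel did not pass the test. Tomm22, the central receptor that joins the other parts of the complex, was at 456, 486 and 462 against 381, 360 and 465, with a log2 fold change of 0.23 and an adjusted p of 0.124 by limma, and Ly5.1 replicate 3 lay within the knockout range. Without that replicate it passed (0.34, limma adjusted p = 0.0193). Tomm40, the channel itself, was at 1246, 1223 and 1240 against 1062, 1003 and 1132 (log2 fold change 0.22, limma adjusted p = 0.0893). Its groups did not overlap. Tomm40l, a second form of the channel that shares 60.5% of its windows with Nr1i3, was at 0.15 with overlapping groups and passed without Ly5.1 replicate 1 (0.30, limma adjusted p = 0.0464). Tomm70a, the receptor that prefers carrier precursors, was at 1473, 1936 and 1800 against 1701, 1926 and 1600, a log2 fold change of -0.01 that turned positive without Ltbr-/- replicate 1 (0.10), without Ly5.1 replicate 2 (0.06) and after correction for length and GC content (0.06). Its difference was smaller than the spread within either group. Whether the changes of the receptors differ from one another was not tested. The cytosolic cochaperone Tomm34 was at -0.02, and turned positive without Ltbr-/- replicate 2 (0.12) and without Ly5.1 replicate 1 (0.00066).

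Of the 3 small TOM subunits, 2 rose. This and each later count by role stands against 10.6% of all tested genes that were higher at adjusted p, and most roles hold too few genes for a share to be read. Tomm7, which modulates the assembly of the TOM complex, was at 1049, 1088 and 1114 against 772, 740 and 773 (1084 ± 32.5 against 762 ± 19.1, SD, n = 3 each). Replicates were tight in both groups, and the log2 fold change was 0.51 ± 0.087 (SE, limma adjusted p = 2.92e-05). Tomm6, which stabilizes the complex, was at 961, 935 and 880 against 767, 595 and 730, a log2 fold change of 0.42 ± 0.096 (SE, limma adjusted p = 0.00173). Of its 76-base transcript windows, 88.9% are also found in other genes, an antisense transcript and a readthrough gene among them, and strand use in the counting was not stated, so its value is uncertain. It did not pass after correction for length and GC content (0.24, limma adjusted p = 0.0738). Tomm5 was at 191, 198 and 172 against 152, 183 and 182, with a log2 fold change of 0.12 that was -0.04 after that correction.

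Among the 5 tested small Tim chaperones, which shield hydrophobic precursors between the membranes, 1 rose. Timm8b was at 379, 398 and 436 against 303, 319 and 358 (log2 fold change 0.31 ± 0.096, SE, limma adjusted p = 0.0232). The groups were separate, with the nearest samples at 379 and 358. Its call was lost without Ltbr-/- replicate 3 (0.26, limma adjusted p = 0.144), without Ly5.1 replicate 1 (0.26, adjusted p = 0.114), without Ly5.1 replicate 2 (0.30, adjusted p = 0.0756) and after correction for length and GC content (0.12, adjusted p = 0.427).

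Timm13, which pairs with Timm8 proteins in one chaperone complex, was at 826, 639 and 822 against 717, 543 and 746. Each group held 1 low sample, which was replicate 2 in both. The log2 fold change of 0.19 (limma adjusted p = 0.245) was within the spread of the groups. With the replicate number as a block in the fit, the limma adjusted p was 0.145. Whether the same number marks the same chimeras is not stated. Timm9 and Timm10 form the other chaperone complex. Timm9 was at 214, 223 and 223 against 214, 201 and 197, so that the lowest knockout sample lay just above the highest control sample (log2 fold change 0.11, limma adjusted p = 0.46). Timm10 was at 211, 213 and 192 against 192, 191 and 219, a log2 fold change of 0.03 that was -0.15 after correction for length and GC content and -0.0020 without Ly5.1 replicate 2. Timm8a1, the relative of Timm8b on the X chromosome, was at 81.3, 75.9 and 76 against 81.7, 78.0 and 84.8, a log2 fold change of -0.07 (limma adjusted p = 0.595). It shares 39.9% of its windows with other genes.

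Under the symbols taken here, the TIM23 complex and its motor had 5 tested members, none past adjusted p. All 5 had a log2 fold change above 0, against 46.4% of all tested genes. Timm21 of the same complex, listed under an older symbol, was at -0.12. Of 7 presequence motor and chaperone genes without such symbols, 4 were above 0 and 3 below. Timm50, the receptor of the complex, was nearest to the threshold, at 1434, 1537 and 1758 against 1395, 1286 and 1296 (log2 fold change 0.25, limma adjusted p = 0.0541). It passed when only the upper 25% of symbols were tested (adjusted p = 0.0254) and without Ltbr-/- replicate 1 (0.31, adjusted p = 0.0314). Timm17a was at 208, 208 and 243 against 175, 186 and 197 (log2 fold change 0.24, limma adjusted p = 0.0781) and was past the threshold after correction for length and GC content (0.33, limma adjusted p = 0.0107). It lies 2.76 Mb from Ptprc, the gene of CD45, at which the donors differ. Timm17b was at 0.17 on the log2 scale, Timm44, which tethers the motor, at 0.10 and the channel subunit Timm23 at 0.06, with 88.3% of the windows of Timm23 shared with other genes. Timm22, the channel that inserts carriers, was at 351, 340 and 363 against 257, 318 and 311, with separate groups and a log2 fold change of 0.26 (limma adjusted p = 0.0717).

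Among the carriers, 4 of 39 rose (10.3%), close to the share of all tested genes (10.6%). Slc25a1 exports citrate, the source of cytosolic acetyl-CoA. Its signal was 2822, 3069 and 2677 in Ltbr-/- and 1664, 1465 and 1937 in Ly5.1 samples (2856 ± 198 against 1689 ± 237, SD, n = 3 each). The groups were far apart although the control samples differed among themselves, and the log2 fold change was 0.77 ± 0.090 (SE, limma adjusted p = 1.74e-08). The other di- and tricarboxylate carriers did not pass, with Slc25a11, the oxoglutarate carrier, at 0.18, Slc25a10, the dicarboxylate carrier, at 0.14, and Slc25a21 at -0.05.

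Slc25a39, which brings glutathione into mitochondria and is needed for heme synthesis and iron-sulfur proteins, was at 3905, 4145 and 4627 against 2647, 2333 and 2661 (4226 ± 368 against 2547 ± 185, SD, n = 3 each). The log2 fold change was 0.73 ± 0.081 (SE, limma adjusted p = 4.95e-09). Its close relative Slc25a40 was at 50.4, 50.2 and 55.8 against 55.2, 54.0 and 57.9 and did not pass (log2 fold change -0.10, limma adjusted p = 0.342). Both were in the list of carriers for cofactors, nucleotides, glutathione and acylcarnitine, in which 1 of 11 tested members rose and 5 of 11 were above 0.

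Carriers of adenine nucleotides and phosphate had 2 of 6 tested members that rose. Slc25a4, one of the ADP/ATP exchangers, was at 3140, 3087 and 3314 against 2499, 2094 and 2414 (log2 fold change 0.45 ± 0.081, SE, limma adjusted p = 7.25e-05). Slc25a3, the phosphate carrier that feeds ATP synthase, was at 7083, 7303 and 7340 against 5723, 6152 and 5973 (log2 fold change 0.28 ± 0.068, SE, limma adjusted p = 0.0026), and did not pass after quantile normalization (0.06, adjusted p = 0.553). Slc25a5, the other main ADP/ATP exchanger, was at 4478, 4659 and 4884 against 4154, 4210 and 4359 (log2 fold change 0.14, limma adjusted p = 0.21), with separate groups and 27.3% of its windows shared.

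The 5 lowest members were all carriers, and none passed. Slc25a24, a calcium-regulated carrier of ATP-magnesium and phosphate, was at -0.16, Slc25a15, the ornithine carrier, at -0.14, Slc25a45 at -0.14, Slc25a12, an aspartate and glutamate carrier, at -0.13, and Slc25a25, a relative of Slc25a24, at -0.12, with limma adjusted p between 0.295 and 0.421. Of these, Slc25a12 had separate groups, at 918, 1062 and 1062 against 1123, 1121 and 1071. Of 8 tested amino acid carriers, 2 were above 0 and the median was -0.09. The mitochondrial iron importers lay on opposite sides of 0 without passing, with Slc25a28 at 0.23 (limma adjusted p = 0.112, or 0.35 with adjusted p = 0.0097 without Ly5.1 replicate 3) and Slc25a37, the one linked to red cell formation, at -0.11 (adjusted p = 0.487). Of the 3 uncoupling protein-like carriers, none was further from 0 than Slc25a30, at -0.05, which turned to 0.06 without Ltbr-/- replicate 3.

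The plot of fold changes shows 58 of the 59 tested members by list. On the log2 scale, fold changes had medians of 0.16 for the 8 small Tim/Tom subunits, 0.19 for the 12 other Tim/Tom proteins, -0.02 for the 39 carriers and -0.01 for all tested genes. Above 0 were 7 of 8, 10 of 12 and 18 of 39, against 46.4% of all tested genes. The small subunits thus exceeded the carriers by 0.18 in the median, and the larger Tim/Tom proteins lay as high as the small ones.

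**Figure D2:**
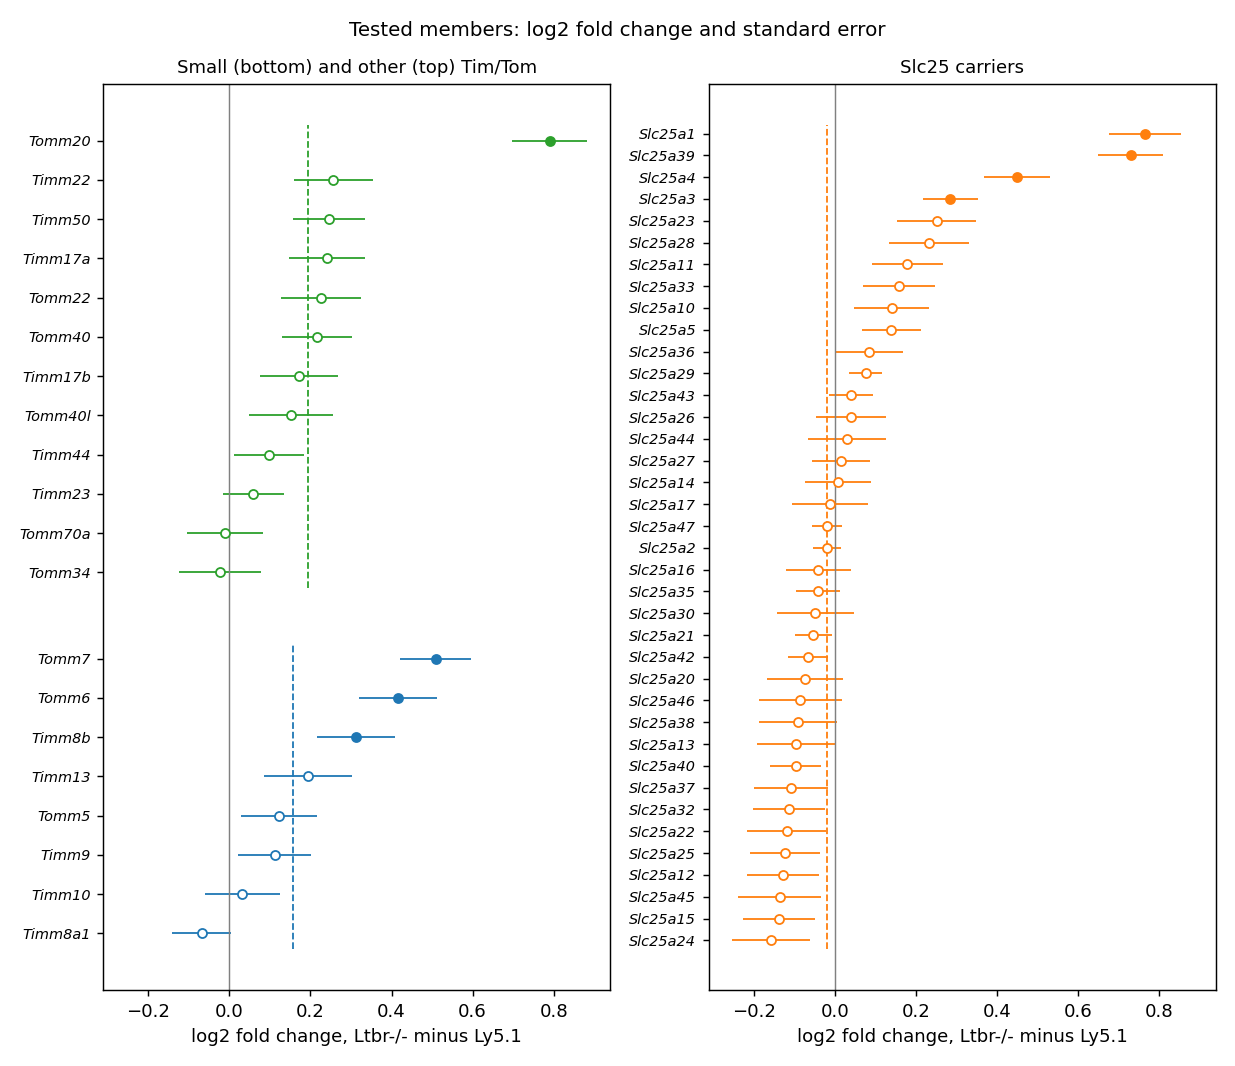
Log2 fold change (Ltbr-/- minus Ly5.1, x axis) and standard error of 58 of the 59 tested members, 8 small and 12 other Tim/Tom (left, blue and green) and 38 of 39 carriers (right, orange), with filled points for adjusted p under 0.05 and a dashed line at the median of each whole list. Tim/Tom medians of 0.16 and 0.19 lie right of 0 and the carrier median of -0.02 lies at 0, on the deposited scale (centring on ribosomal protein genes puts them at -0.71, -0.67 and -0.88), while Slc25a1 and Slc25a39 lie furthest right among the carriers.

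The lists were also followed sample by sample, which restates the same values. As the median deviation of each gene from its own mean over the 6 samples, the small subunits were at 0.080, 0.105 and 0.105 on the log2 scale in Ltbr-/- and at -0.069, -0.135 and 0.00042 in Ly5.1 samples. The difference from the carriers was 0.073, 0.084 and 0.078 against -0.047, -0.120 and -0.019. The 3 Ltbr-/- samples were close together and Ly5.1 replicate 3 was nearest to them. The carriers alone were at 0.0070, 0.021 and 0.027 against -0.021, -0.015 and 0.019, so that their groups overlapped. The other Tim/Tom proteins were at 0.065, 0.092 and 0.124 against -0.112, -0.147 and -0.026. After correction for length and GC content the list medians were 0.08, 0.13 and -0.04 and the difference was 0.12. In the upper 25% of symbols by mean the carrier median was 0.08 and that of the small subunits 0.36.

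Groups did not overlap upward in 17 of 59 members (28.8%), against 17.0% of all tested genes, and downward in 2 (3.39%), against 13.5%. The 17 were 4 of 8 tested small Tim/Tom subunits, 5 of 12 other Tim/Tom proteins and 8 of 39 carriers. The 2 lower were Slc25a12 and Slc25a37.

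Length and level moved with the fold change in the members as a whole but not in every list. Across the 59 members the Spearman correlation of log2 fold change with transcript length was -0.42, and -0.41 across 12686 tested genes. With mean level it was 0.48 across members and 0.0035 across all tested genes. Genes share the 6 libraries and are not independent replicates, so these are descriptions. By the longest annotated coding sequence of each gene, which need not be the main form, the small subunits encode 55 to 104 residues. The carriers encode 265 to 677 by the same measure. Median transcript lengths were 937 bases for the small subunits and 2609 bases for the carriers. Within the 8 small subunits, the Spearman correlation with length was -0.26 and with mean level 0.90. Within the 39 carriers it was -0.55 with length and 0.32 with level, and within the 12 other Tim/Tom proteins 0.13 and -0.12, the opposite signs. The part of length in the results was not tested beyond the length and GC correction, which is given here for some values only. No correction for level was run, and the part of level was not tested.

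**Figure D3:**
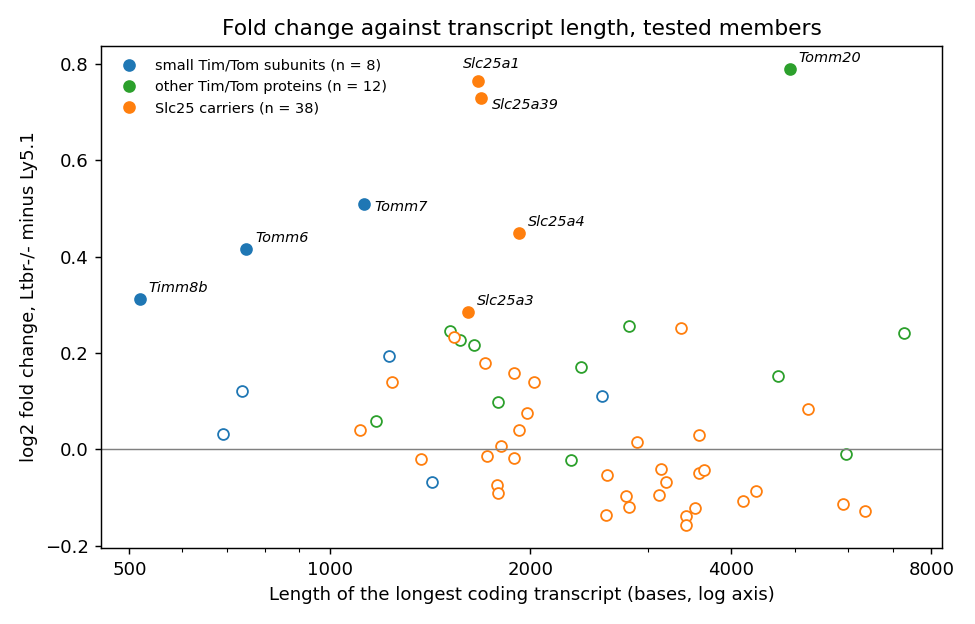
Log2 fold change (y axis) against the length of the longest coding transcript (x axis, bases, log axis) of 58 of the 59 tested members, coloured by list, with filled and named points for adjusted p under 0.05. Shorter transcripts lie higher among the carriers, with a Spearman correlation of -0.55 over all 39, while Tomm20 is high on a transcript of 4902 bases. All points lie on the deposited scale, and centring on ribosomal protein genes would place each of them below 0.

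Ratios between related members within a sample do not depend on a factor applied to a whole sample. For 9 pairs, chosen after their values were seen, the groups did not overlap in 5. In the order named here, the log2 ratio of the first to the second was higher in Ltbr-/- in these 5. That order sets the sign and was also free, and Timm8b is named before Timm8a1. The share of other gene pairs that separate was not computed. Slc25a23 to Slc25a24 and Slc25a28 to Slc25a37 barely separated, with lowest knockout values of 0.539 and 1.232 against highest control values of 0.531 and 1.224. The largest difference was that of Slc25a39 to Slc25a40, at 0.83 on the log2 scale. It was 0.41 for Slc25a23 to Slc25a24, which carry ATP-magnesium and phosphate, 0.38 for Timm8b to Timm8a1, 0.34 for Slc25a28 to Slc25a37, and 0.31 for Slc25a4 to Slc25a5. With 3 against 3 samples an exact two-sided permutation test cannot go below p = 0.1, which these 5 reached, with an adjusted p of 0.18 over the 9 pairs. Slc25a12 to Slc25a13 (-0.03), Tomm40 to Tomm40l (0.06), Timm17a to Timm17b (0.07) and Slc25a33 to Slc25a36 (0.07) overlapped between the groups.

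**Figure D4:**
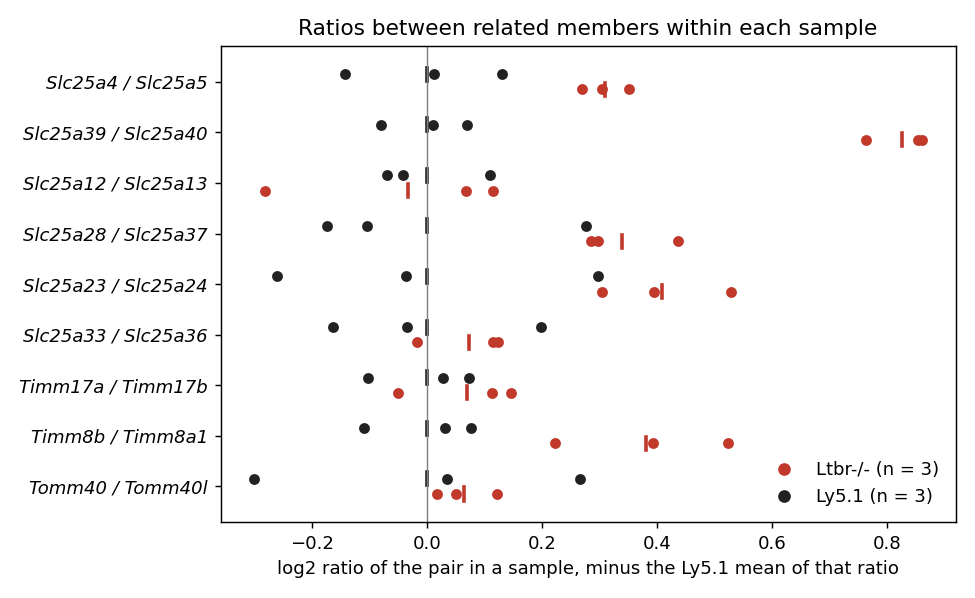
Log2 ratio of the first to the second member of 9 related pairs in each sample, minus the Ly5.1 mean of that ratio (x axis), for 3 Ltbr-/- (red) and 3 Ly5.1 (black) samples, with bars at the group means. With the pairs in the order named, the red points lie right of all black points in 5 pairs and overlap in the other 4. They lie furthest for Slc25a39 to Slc25a40, at a difference of 0.83.

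Import genes without such symbols were listed by role, together with 7 carriers and relatives that lack an Slc25a symbol. Of these 29 genes, 27 were tested. At adjusted p, 5 were higher (18.5%, against 10.6% of all tested genes) and 0 lower (against 4.18%). The median of their mean log2 signal was 9.57, against 8.46 for all tested genes. In the upper 25% of symbols by mean, 16.3% of all genes were higher, near the share of these genes. Above 0 were 21 of 27 (77.8%, against 46.4%), and the median on the log2 scale was 0.07. The carriers and relatives, 5 of them tested, gave 2 of the higher genes and lay above 0 in all 5. Romo1, which takes part in the TIM23 complex, was at 1040, 1033 and 1131 against 744, 695 and 777 (log2 fold change 0.53, limma adjusted p = 2.02e-05). Mtch2, an insertase of the outer membrane, was at 0.39 (adjusted p = 0.00134 by limma), the inner membrane insertase Oxa1l at 0.31 (0.0103), the pyruvate carrier subunit Mpc2 at 0.30 (0.0447), and Samm50, the outer membrane assembly channel, at 0.23 (0.0418). None of the 5 processing peptidases passed, with log2 fold changes between -0.03 and 0.07. Hspa9, the motor chaperone of the matrix, was at -0.10 and Ucp2 at 0.02. The directions of all these genes are those of the deposited scale, and centring on ribosomal protein genes put the median at -0.80.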

How the data were processed

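LT/ST-HSC RNA was sequenced as single-end 76-base reads from 3 Ltbr-/- and 3 Ly5.1 samples, grouped by sample title. The authors assembled reads with SeqMan NGen and quantified them with ArrayStar, and the deposited signal, 1 value per gene and sample, is the regularized log value as a power of 2, as judged from the values. GRCm38, mm10 and DESeq2 are named in the submitters' processing notes, and the annotation is not given in the sources used here. The paper states an average number of reads per sample and its spread. Depth of each single sample cannot be computed from the deposited values, so precision rests on 3 replicates.

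The log2 signal, with no pseudocount, was fitted with limma 3.58.1 (R 4.3.3, lmFit, eBayes with trend). Of repeated symbols, the highest mean was kept. The upper 50% by mean (13108 symbols) were tested, and calls were made at an adjusted p of 0.05, alone and with a fold of at least 1.5. The fit was run on simulated data, recovering 100% of 200 changed genes among 13108 with 0 false calls. Recovery at the fold changes of the members, and for calls by adjusted p alone, was not tested. Alternatives were other filters, scalings, variance models, a length and GC correction, the replicate block and leaving out each sample. Shared windows were counted in GENCODE M21 transcripts. All 66 symbols matched RefSeq (GRCm38.p6).

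Members and lists were chosen with earlier results of these data known. Named were every small subunit, every member past adjusted p, the 5 largest changes in each direction and the highest mean of each role. Others were chosen after their values were seen. For 1 tested carrier, no result of its own is reported here.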

Additional observations from a re-analysis of the deposited data

How the results depend on the processing

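The counts of 3 higher and 0 lower past both thresholds held in every setting run except centring on ribosomal protein genes. That setting gave 0 higher and 51 lower, and by adjusted p 0 higher and 56 lower. It put the median of all tested genes at -0.88, and the share of all of them called is not given here. There the medians were -0.71 (small subunits), -0.67 (other Tim/Tom), -0.88 (Slc25 carriers) and -0.80 (genes without such symbols). Timm10 was at -0.83, Timm9 -0.75, Tomm5 -0.74, Timm13 -0.67, Slc25a28 -0.63, Timm50 -0.62, Timm22 -0.61 and Slc25a3 -0.58. Timm8b was at -0.55, Tomm6 -0.45, Slc25a4 -0.42, Tomm7 -0.36, Slc25a39 -0.14, Slc25a1 -0.10 and Tomm20 -0.075. By construction this centres each sample on the median of 78 ribosomal protein genes. With the upper 25% by mean, which tests 31 members, the medians were 0.36 (small), 0.085 (carriers) and 0.11 (genes without such symbols), and the difference was 0.28.

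After correction for length and GC content, with or without the replicate block, the medians were 0.077 (small), 0.13 (other Tim/Tom) and -0.039 (carriers), the difference was 0.12, 1 member (Slc25a2) was lower at adjusted p, and Timm10 (-0.15), Tomm5 (-0.038) and Tomm70a (0.063) changed sign; the cause was not tested. The replicate block alone changed no call, with 8 higher and 0 lower at adjusted p. Samples with the same number correlated at 0.031, -0.0052 and 0.090. The last was the highest of all combinations, but not every sample correlated best with its own number. Whether the same number marks the same chimeras is not stated in the labels, and these values do not decide it.

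Leaving out 1 sample, the medians ranged from 0.13 to 0.22 (small), 0.14 to 0.25 (other Tim/Tom), -0.025 to 0.0012 (carriers, above 0 without Ltbr-/- replicate 1) and 0.039 to 0.11 (genes without such symbols), and the difference from 0.13 to 0.23. By adjusted p, 7 to 12 members were higher, the most without Ly5.1 replicate 3, with Slc25a23, Slc25a28 and Tomm22 among those added. Fold changes ranged from -0.0020 to 0.096 for Timm10, -0.093 to 0.10 for Tomm70a, -0.10 to 0.12 for Tomm34 and -0.11 to 0.057 for Slc25a30.

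Leaving out genes with 10% or more shared windows moved no list median by more than the replicate spread. Choosing small subunits by a coding length of up to 120 residues and adding Timm10b were chosen after seeing the data and moved no list median by more than that spread either. The planned choice by RefSeq protein length and the planned protein motifs were not run. Low genes such as Slc25a29 are limited by shrinkage, and depth cannot be computed from the deposited values.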

Other observations

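Some genes of these families stand in the files under older symbols that the choice by symbol did not take. Timm10b, a small Tim chaperone listed as Fxc1, had a signal of 416, 391 and 445 in Ltbr-/- and 355, 338 and 406 in Ly5.1 samples, with a log2 fold change of 0.19 on the deposited scale (limma adjusted p = 0.194). Timm21 of the TIM23 complex, listed as 1700034H14Rik, was at 197, 198 and 183 against 211, 217 and 199, the groups not overlapping, with a log2 fold change of -0.12 (limma adjusted p = 0.435). Timm29 of the TIM22 complex, listed as 1810026J23Rik, was at -0.09 on the log2 scale, Slc25a51, a carrier of NAD listed as Mcart1, at 0.02, and Slc25a53, listed as Mcart6, at -0.05. Slc25a54, listed as 4930443G12Rik, was at 1 in every sample. None of them passed the adjusted p threshold.

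Slc25a18, a glutamate carrier that was not tested, lies 4.53 Mb from Ltbr. Its signal was 0.57 to 0.575 in all 6 samples.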
